A study of Mus musculus with 12 samples.

Results

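The genes described here carry names that end in Rik, which were given to mouse transcripts known from the RIKEN full-length cDNA collection, and which held peaks of the RNA-binding protein YTHDF1 in mouse striatum. A gene was a member when any of its symbols in the peak tables ended in Rik. There were 82 such genes among the 1247 genes listed in either table, of which 76 were listed for cocaine, 23 for saline and 17 for both. The samples came from the striatum of C57BL/6J mice, all wild-type, after cocaine or after saline, and each treatment had 3 libraries of RNA precipitated with a monoclonal anti-YTHDF1 antibody (CLIP) and 3 input libraries, 12 in all. All groups share the genotype and tissue (the labels name the cell type as striatal neurons), and the labels give no age, sex, dose or time and do not say whether a library came from its own animal. In CLIP-seq, ultraviolet light links protein to RNA, and the RNA held by the precipitated protein is sequenced. The values are numbers of peaks assigned to a gene, given separately for the 6 CLIP libraries, called libraries 1 to 3 of a treatment by the order of their columns. No value is corrected for RNA abundance, since the input libraries were not analysed here.

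YTHDF1 is a cytoplasmic reader of N6-methyladenosine (m6A), a methyl mark on adenosines of messenger and long non-coding RNAs, and is known to promote the translation of messenger RNAs that it binds. Long non-coding RNAs (lncRNAs) are transcripts without a long reading frame, many of which start from, or run antisense to, a protein-coding gene. Most Rik names mark such transcripts, whose function is largely unstudied, and a smaller number mark protein-coding genes that have not been given a functional name. In RefSeq (GRCm38.p6) all 82 members were found by symbol: 65 are lncRNAs, 15 are protein-coding and 2 are transcribed pseudogenes. The lncRNA share was 79.3%, beside 77.7% of the 2300 Rik-named genes in RefSeq. For 3 members the tables pair the gene with a second symbol: F630111L10Rik with P2ry14, A930011G23Rik with Rasgef1b, and 1700037C18Rik with Gm41410. These 3 genes have 1 set of counts, which cannot be divided between their symbols.

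The cocaine libraries held 24770 to 25528 peaks in listed genes and the saline libraries 3720 to 3944, and the number of reads behind them is unknown. A listed gene had a mean of at least 6.33 peaks in cocaine and at least 1.33 in saline, and a gene missing from a table was below that table's cutoff, not at 0. Of 15 markers of striatal projection neurons, 1 was listed (Gnal), and Drd1, Drd2, Ppp1r1b, Adora2a and Penk were in neither table under these symbols. Of 7 astrocyte markers 0 were listed, and of 6 microglial markers 2 (Cx3cr1 and P2ry12). Pan-neuronal markers had 1 of 8 listed (Gad1), oligodendrocyte markers 1 of 8 (Cnp), vascular markers 1 of 6 (Pecam1) and cortical excitatory markers 1 of 5 (Cux2). Of 35 brain lncRNAs with an established name, such as Malat1, Meg3 and Miat, 2 were listed, Tsix for both treatments and Dlx6os1 for cocaine alone. The part of other cell types in the counts of Rik-named genes was not tested.

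The start regions of the 4 Rik-named genes with most peaks for which RefSeq gives a start window are given 5′ to 3′ on the gene's own strand (RefSeq, GRCm38.p6), because these RNAs lead the results that follow. The 250 bases before the annotated start are in lower case, and the capitals mark the first 50 transcribed bases, the part that belongs to the RNA itself. They lie at chr2:135583171-135583470 on the minus strand (9630028H03Rik), chr11:81860427-81860726 on the plus strand (5530401A14Rik), chr11:98358234-98358533 on the minus strand (1700003D09Rik) and chr7:4136877-4137176 on the minus strand (D030047H15Rik).
9630028H03Rik: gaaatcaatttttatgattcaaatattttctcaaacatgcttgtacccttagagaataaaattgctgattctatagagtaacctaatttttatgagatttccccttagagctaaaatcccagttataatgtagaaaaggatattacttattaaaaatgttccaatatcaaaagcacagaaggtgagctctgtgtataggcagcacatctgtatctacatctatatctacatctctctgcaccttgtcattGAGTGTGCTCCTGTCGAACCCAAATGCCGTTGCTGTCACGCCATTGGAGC
5530401A14Rik: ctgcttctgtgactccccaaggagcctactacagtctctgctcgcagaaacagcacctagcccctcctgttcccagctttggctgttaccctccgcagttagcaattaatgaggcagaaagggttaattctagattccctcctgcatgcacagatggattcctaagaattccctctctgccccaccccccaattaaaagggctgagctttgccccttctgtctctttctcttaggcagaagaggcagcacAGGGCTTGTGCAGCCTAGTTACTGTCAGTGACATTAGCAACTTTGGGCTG
1700003D09Rik: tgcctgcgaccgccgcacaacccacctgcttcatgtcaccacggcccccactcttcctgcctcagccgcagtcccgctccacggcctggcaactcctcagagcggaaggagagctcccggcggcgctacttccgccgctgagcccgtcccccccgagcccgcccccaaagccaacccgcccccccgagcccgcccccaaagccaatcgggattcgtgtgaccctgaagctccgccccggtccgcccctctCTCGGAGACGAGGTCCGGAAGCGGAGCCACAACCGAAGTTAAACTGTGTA
D030047H15Rik: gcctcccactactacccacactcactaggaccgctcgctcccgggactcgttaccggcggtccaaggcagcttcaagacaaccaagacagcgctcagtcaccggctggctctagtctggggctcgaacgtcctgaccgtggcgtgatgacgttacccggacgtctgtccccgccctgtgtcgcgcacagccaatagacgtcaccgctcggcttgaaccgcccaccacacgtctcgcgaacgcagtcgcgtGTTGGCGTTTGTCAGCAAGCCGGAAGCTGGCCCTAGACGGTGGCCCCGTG

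The windows differ in base composition, with a GC content of 36.0% for 9630028H03Rik, 51.7% for 5530401A14Rik, 69.0% for 1700003D09Rik and 64.3% for D030047H15Rik. The GC-rich starts of 1700003D09Rik and D030047H15Rik lie 85 and 130 bases from the nearest start of a protein-coding gene that is transcribed away from them on the other strand. These neighbours are Stard3, which encodes a cholesterol transport protein of late endosomes, and Leng8. Divergent starts of a coding gene within 1000 bases were found for 10 of the 48 lncRNA members with a start window (20.8%) and for 14.9% of the 1392 unlisted Rik-named lncRNAs with a start window. The letters GGACT, which spell the core m6A consensus in DNA, were searched on the gene's own strand. They were in 16 of 68 member windows (23.5%) and in 26.1% of all 32851 RefSeq windows of 300 bases, and in the first 50 transcribed bases of 4.41% of member windows and 5.76% of all windows. In the 4 windows printed, GGACT is found in that of D030047H15Rik, in its lower-case part. These windows hold almost none of the transcribed RNA, and the tables give no position of a peak, so the match says nothing about where YTHDF1 bound.

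The lead among Rik-named genes was held by 9630028H03Rik, an intergenic lncRNA at chr2:135580530-135583220. It had 232, 211 and 204 peaks in the cocaine libraries and 35, 26 and 42 in the saline libraries, so that all cocaine libraries lay above all saline libraries. It held 11.9% to 13.0% of all peaks in Rik-named genes in a cocaine library and 16.25% to 21.4% in a saline library. These totals cover the 76 members listed for cocaine and the 23 listed for saline, so the percents cannot be compared directly. Over the 17 shared members it held 232 of 906, 211 of 822 and 204 of 826 peaks in cocaine. In saline it held 35 of 159, 26 of 143 and 42 of 174. Its RefSeq span is 2691 bases, so its cocaine peaks come to 1 per 12.5 bases, against a median of 1 per 841 bases over the 76 members listed for cocaine and 1 per 2567 bases over the 714 genes listed for cocaine that have a RefSeq span. How the authors gave a peak to a gene is not given in the sources used here, so it cannot be told whether all of these peaks lie inside the span. The gene lies between those of 2 phospholipase C enzymes, 105.3 kb from Plcb1 and 75.4 kb from Plcb4, neither of which was listed. A Rik-named lncRNA within Plcb1, 4930545L23Rik, was listed as well. The genes in both tables whose ratio of cocaine to saline peaks (6.28) was nearest to that of 9630028H03Rik were Spata6l, Gm21451, Hipk4 and 2 genes without a symbol, all within 0.0117 on the log2 scale.

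The next 5 members by peaks in cocaine were lncRNAs that each overlap a protein-coding gene. 4930419G24Rik, at chr3:33024777-33088607 across Pex5l, which encodes an accessory subunit of HCN channels, had 96, 92 and 96 peaks after cocaine, whereas the saline libraries held 11, 13 and 10. Its 3 cocaine libraries were nearly equal, and its ratio of 8.35 was the highest of the 17 shared members. 5530401A14Rik, at chr11:81860677-81894582, runs opposite to Asic2, the gene of an acid-sensing ion channel, and had 87, 83 and 79 peaks in cocaine against 4, 9 and 23 in saline. Its saline libraries were spread more widely than its cocaine libraries (12 ± 9.85 against 83 ± 4, SD, n = 3), with library 3 of saline above the other two. Asic2 itself was listed for cocaine alone with 15, 9 and 7 peaks.

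1700003D09Rik, at chr11:98350718-98358283, overlaps Ppp1r1b, which encodes DARPP-32, the phosphoprotein that integrates dopamine signals in striatal projection neurons. It had 78, 60 and 85 peaks in cocaine against 13, 14 and 13 in saline, and the treatments did not overlap. Ppp1r1b was in neither table under its symbol. D030047H15Rik, at chr7:4126340-4136926, runs opposite to Ttyh1, a tweety family membrane protein gene, and had 76, 63 and 69 peaks in cocaine against 13, 6 and 11 in saline. D930015M05Rik, at chr2:92408892-92432308, runs opposite to Cry2, a repressor of the circadian clock, and had 86, 59 and 41 peaks in cocaine against 8, 15 and 23 in saline. Its libraries were spread widely in both treatments (62 ± 22.6 and 15.3 ± 7.51, SD, n = 3), without overlap between them.

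**Figure D1:**
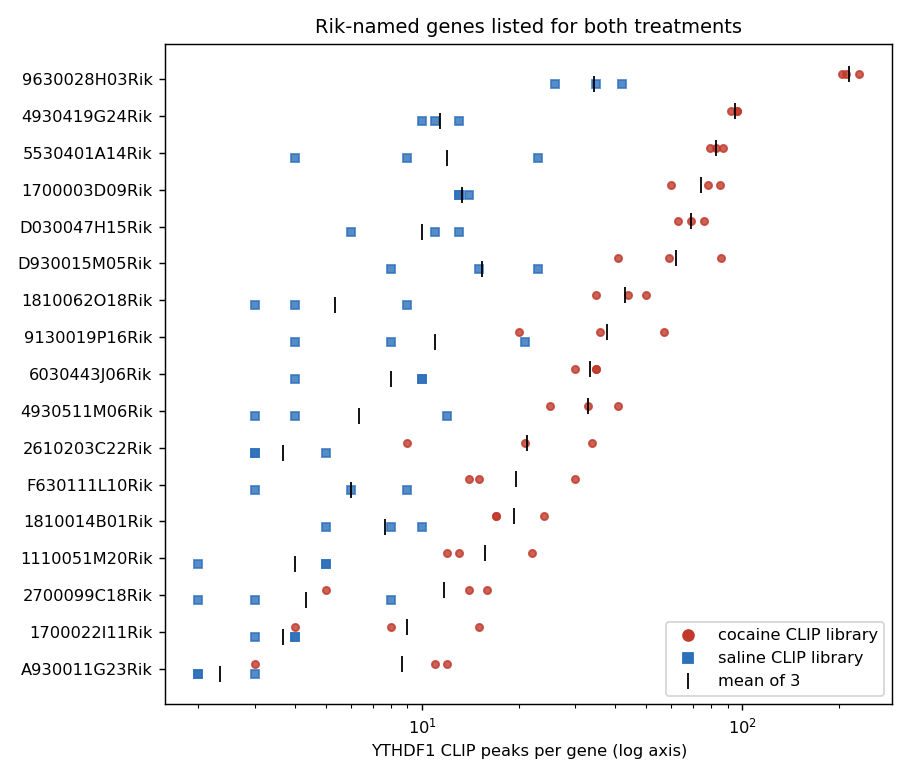
Peaks per gene in each CLIP library (x axis, log scale) for the 17 Rik-named genes listed for both treatments, ordered by their mean in cocaine; circles are cocaine libraries, squares saline libraries and ticks the mean of 3. 9630028H03Rik stands apart with 204 to 232 peaks in cocaine, and the treatments overlap for the 4 genes 9130019P16Rik, 2700099C18Rik, 1700022I11Rik and A930011G23Rik.

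Further lncRNAs were listed for both treatments at lower counts. 1810062O18Rik runs opposite to Ppp3cb, a catalytic subunit of the calcium-dependent phosphatase calcineurin, and to Usp54, and had 35, 44 and 50 peaks in cocaine against 4, 9 and 3 in saline. 9130019P16Rik, opposite to Chn2, a Rac regulator of the chimaerin family, and to Prr15 and Wipf3, had 36, 57 and 20 peaks in cocaine against 21, 4 and 8 in saline. Its lowest cocaine library lay below its highest saline library. 6030443J06Rik, whose start lies 75 bases from that of Orc5, an origin recognition gene on the other strand, had 35, 35 and 30 peaks in cocaine against 4, 10 and 10 in saline.

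4930511M06Rik, which overlaps Ccdc192, had 25, 33 and 41 peaks in cocaine against 12, 3 and 4 in saline. 2610203C22Rik, which overlaps Adhfe1 and Vxn, had 34, 9 and 21 in cocaine and 3, 5 and 3 in saline. In both genes every cocaine library lay above every saline library. The gene with the symbols F630111L10Rik and P2ry14 had 15, 14 and 30 peaks in cocaine against 6, 9 and 3 in saline, without overlap. P2ry14 encodes a receptor for UDP-sugars, and F630111L10Rik also overlaps Med12l, which had 16, 32 and 16 peaks in cocaine against 9, 3 and 3 in saline. The gene with the symbols A930011G23Rik and Rasgef1b had 3, 12 and 11 peaks in cocaine against 3, 2 and 2 in saline. At 431817 bases A930011G23Rik has the longest span of the shared members, and its lowest cocaine library equalled its highest saline library.

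The shared members that are not lncRNAs were pseudogenes and protein-coding genes with few peaks. The transcribed pseudogene 1810014B01Rik had 17, 24 and 17 peaks in cocaine against 10, 5 and 8 in saline, without overlap of the treatments, and it lies 887 bases from Hsp90b1, a chaperone gene of the endoplasmic reticulum. The transcribed pseudogene 2700099C18Rik, which overlaps Mettl4, had 14, 5 and 16 peaks in cocaine against 3, 8 and 2 in saline, so that its libraries overlapped. The coding gene 1110051M20Rik, which spans 171475 bases and runs opposite to Arfgap2, had 22, 13 and 12 peaks in cocaine against 5, 2 and 5 in saline. The coding gene 1700022I11Rik had 15, 8 and 4 peaks in cocaine against 4, 3 and 4 in saline. Its ratio of 2.45 was the lowest of the shared members.

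In raw peaks, 13 of the 17 shared members had all 3 cocaine libraries above all 3 saline libraries, beside 77.7% of the 251 genes in both tables. The members' median ratio of cocaine to saline peaks was 4.17 (interquartile range 3.42 to 6.28), beside 4.54 over all 251 genes, 5.33 over 16 shared Gm-named predicted genes and 6.17 over 15 shared genes named as opposite-strand or antisense transcripts. Without library 1 of saline the members' median was 5.19, beside 4.57 over all shared genes. With a mean above 6 peaks in both tables it was 5.39, beside 4.51. Whether the members' median lay below or above that of all shared genes thus depended on the setting. The share of members that separate the treatments is close to that of all shared genes, and treatment and sequencing depth cannot be told apart in raw peak numbers. Over the 17 members, mean peaks in cocaine and saline were correlated (Spearman's rho = 0.87 across genes, which share their libraries and are not independent replicates).

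Another 59 members were listed for cocaine alone, with means of 6.33 to 50.7 peaks and a median of 13.3. The highest was 4930545L23Rik, opposite to Plcb1, the gene of a phospholipase C that acts downstream of G protein-coupled receptors, with 60, 46 and 46 peaks. 4930555F03Rik, opposite to the teneurin gene Tenm3, had 31, 38 and 48 peaks. A230004M16Rik, an lncRNA that spans 258459 bases, had 21, 49 and 38 peaks. The libraries of A230004M16Rik were spread most widely of these 3 genes, with an SD of 14.1 against 8.08 for 4930545L23Rik and 8.54 for 4930555F03Rik.

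1700109K24Rik, over the splicing regulator gene Rbfox2, had 41, 16 and 36 peaks. 1700007J10Rik, opposite to Mprip, a myosin phosphatase partner gene, had 42, 35 and 15 peaks. 1700080N15Rik, opposite to the scaffold gene Frmd4a, had 16, 20 and 40 peaks. In each of these 3 lncRNAs a single library lay well apart, and it was library 2, 3 and 3. The coding gene 6430550D23Rik, opposite to Cep250 and Ergic3, had 16, 38 and 19 peaks and was the highest of 12 coding members in cocaine alone. 4930599N23Rik, opposite to the histone demethylase gene Kdm7a, had 19, 19 and 26 peaks. D030068K23Rik, an lncRNA 113586 bases from Zfhx3, had 26, 26 and 10 peaks, and B430010I23Rik, over the microtubule-associated gene Mtus1, had 14, 18 and 29. The lowest members, just inside the cocaine cutoff, were 4930562C15Rik with 8, 7 and 4 peaks, 4930412M03Rik with 2, 9 and 8 and 4631405J19Rik with 8, 3 and 8.

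**Figure D2:**
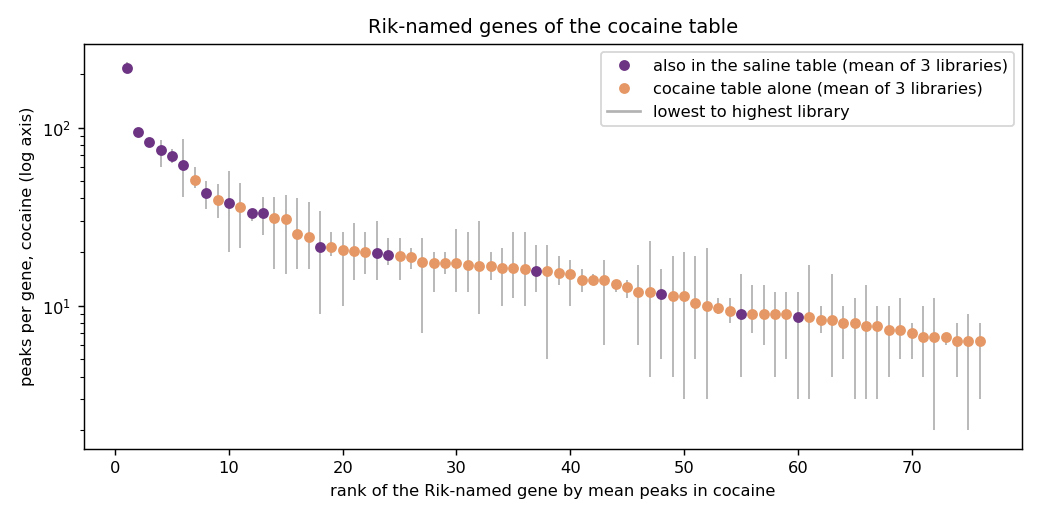
Mean peaks in cocaine (y axis, log scale) of the 76 Rik-named genes of the cocaine table by rank, with grey lines from the lowest to the highest library; colour shows whether the gene was also in the saline table. The 6 highest genes were all in both tables, and 59 genes were absent from the saline table.

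Of the 59 members in cocaine alone, 54 overlap a coding gene. Of these, 4 that overlap genes of the synapse are given as examples, chosen after their values were seen. Others overlap genes of other kinds, such as Kdm7a, and how common synaptic genes are among the 54 was not tested. 4930405A21Rik, opposite to Dlgap4, a postsynaptic scaffold gene, had 17, 18 and 10 peaks, and 4921534H16Rik, opposite to the calsyntenin gene Clstn2, had 3, 20 and 11. 4930404I05Rik, opposite to Synj1, a lipid phosphatase of synaptic vesicle recycling, had 8, 5 and 8, and the coding gene 1700008O03Rik, over Shank1 and Syt3, had 6, 3 and 21. None of the overlapping genes Dlgap4, Clstn2, Synj1, Shank1 and Syt3 was in either table under its symbol. Whether peaks came from the Rik-named RNA or from the overlapping gene cannot be told apart, because the deposited values carry no strand and no position for a peak.

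The 6 members listed for saline alone had few peaks. 4930555B11Rik had 3, 3 and 6 peaks, 4833417C18Rik 3, 5 and 3, and 9530026P05Rik 1, 5 and 5. 3010001F23Rik, over the orphan receptor gene Gpr173, had 3, 2 and 2, E130307A14Rik 1, 1 and 4, and the coding gene 5430401F13Rik 2, 1 and 2, just inside the saline cutoff. Their means were at most 4 peaks in saline. A saline mean cannot be set directly against the cocaine cutoff, because the libraries differ in peaks. The cocaine libraries held 24770 to 25528 peaks in listed genes and the saline libraries 3720 to 3944. In cocaine these genes were below that table's cutoff, by an unknown amount. E130307A14Rik overlaps Traf3ip2, an adaptor gene of interleukin signalling that was listed for cocaine alone with 39, 54 and 38 peaks. 9530026P05Rik runs opposite to Adamts9, a secreted protease gene, as does A730049H05Rik, which lies 97114 bases away and was listed for cocaine alone with 17, 6 and 3 peaks.

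Of the 76 Rik-named genes listed for cocaine, 17 were also listed for saline (22.4%), beside 23.9% of all 1049 cocaine genes. Of the 23 listed for saline, 17 were also listed for cocaine (73.9%), beside 55.9% of all 449 saline genes. Among members with more than 50 peaks in cocaine, 6 of 7 were in both tables, beside 79 of 86 genes overall (91.9%), and the exception was 4930545L23Rik. From above 10 up to 50 peaks it was 9 of 44 members (20.5%) against 139 of 577 genes (24.1%), and at 10 or fewer it was 2 of 25 against 33 of 386. With a mean above 6 peaks asked of both tables, 10 members remained in the saline table, and all 10 were in the cocaine table, beside 132 of 137 genes overall (96.4%).

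The lncRNA members lay on protein-coding genes more often than the Rik-named lncRNAs of the genome that were not listed. Of 65 lncRNA members, 59 overlap a coding gene (90.8%), beside 602 of 1723 unlisted Rik-named lncRNAs (34.9%). These shares are given as counts, with no test. The gap was seen in each class of span: 20 of 24 against 37.0% below 10 kb, 29 of 29 against 32.5% from 10 to 50 kb, and 10 of 12 against 33.7% at 50 kb or more. Listed lncRNAs of other names had similar shares, with 45 of 55 Gm-named (81.8%) and 33 of 34 genes named as opposite-strand or antisense (97.1%), so a high share is not shown to be particular to Rik names. By table, 46 of 47 lncRNA members in cocaine alone overlap a coding gene, 10 of 13 in both tables and 3 of 5 in saline alone.

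**Figure D3:**
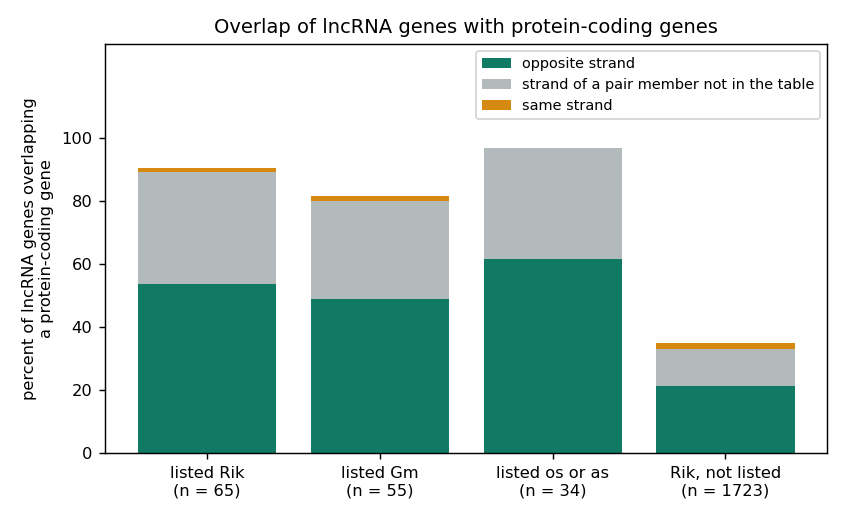
Percent of lncRNA genes that overlap a protein-coding gene in RefSeq (y axis) for listed Rik, Gm and opposite-strand or antisense named genes and for unlisted Rik-named genes, divided by relative strand; n is the number of lncRNA genes. The listed Rik bar reaches 90.8% and the unlisted Rik bar 34.9%.

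Where the strands were known, the overlap was almost always antisense. Of the 59 overlapping lncRNA members, 35 run opposite to every coding gene they overlap, 1 shares the strand of an overlapping gene, and the strand of a gene was not in the table used here for the remaining 23. The exception is 4930469K13Rik, which shares its strand with Kcnip1, a potassium channel interacting protein gene, and had 6, 17 and 13 peaks in cocaine alone. Among unlisted Rik-named lncRNAs the numbers were 367 opposite and 30 on the same strand, so orientation was antisense for most in both sets.

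The lncRNA members overlap 73 different coding genes, of which 8 were listed themselves (10.96%), beside 3.36% of all 21900 coding genes in RefSeq. In pairs with both genes listed, the counts took different orders. 5530401A14Rik had more peaks than Asic2 in every cocaine library. G530011O06Rik, opposite to the ubiquitin ligase gene Mid1, had 9, 9 and 11 peaks against 27, 28 and 15 for Mid1, both in cocaine alone. 2610027K06Rik had 26, 15 and 19 peaks and Bcas3, which it overlaps, 11, 7 and 14. A430018G15Rik had 18, 18 and 6 peaks in cocaine alone, whereas Cacnb4, a calcium channel beta subunit gene on the opposite strand, was listed for saline alone with 1, 1 and 2. Among coding members, C130050O18Rik lies within 3110082I17Rik on the opposite strand, and they had 11, 2 and 7 and 14, 15 and 13 peaks in cocaine alone.

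Peak number did not follow the length of a gene closely. Over the 76 members listed for cocaine, RefSeq span and mean peaks had a Spearman correlation of 0.22 across genes, and over the 714 listed genes with a span it was 0.0020, both given as descriptions. Per length, 9630028H03Rik was followed by 6230400D17Rik, a 1088-base lncRNA opposite to the mitochondrial gene Chchd1, with 13, 27 and 12 peaks, or 1 per 62.8 bases. These 2 members had a peak per fewer than 100 bases (2 of 76), beside 14 of the 714 genes with a span (1.96%). At the other end stood A930011G23Rik, with 1 peak per 49825 bases.

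Libraries of a treatment ordered the members in a like way, with Spearman correlations across members of 0.57 to 0.61 in cocaine and 0.55 to 0.65 in saline. The median coefficient of variation between libraries was 40.1% over the members in cocaine and 37.3% over all genes, and 43.3% and 36.5% in saline. The members' median peak count in cocaine was 15.5 and in saline 5.33, beside 12.7 and 4 over all listed genes. By clone series, the first characters of the name, the largest held 19 members and the next 10. Both were made from testis, and the testis series together gave 36 of 82 members (43.9%), beside 48.8% of all Rik-named genes in RefSeq. Chromosome 2 held 12 members (14.6%, beside 6.35% of Rik-named genes in RefSeq) and chromosome 11 held 11 (13.4%, beside 5.74%).

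The share of peaks held by Rik-named genes was then compared between treatments. In listed genes it was 7.02%, 6.80% and 6.89% in the cocaine libraries and 4.54%, 4.30% and 4.97% in the saline libraries, a difference of 2.30 percentage points. The treatments did not overlap (exact permutation test, 2-sided, p = 0.1), and no smaller p is possible with 3 libraries against 3. These totals cover different genes, since each table has its own cutoff. Without the single gene with most peaks in the totals, the means were 7.39% and 5.88%, a difference of 1.51 percentage points (exact permutation p = 0.1). Over the 251 genes in both tables the share was 6.52%, 5.97% and 5.93% in cocaine and 4.89%, 4.50% and 5.13% in saline, again without overlap (exact permutation p = 0.1). That gene, which has no symbol (ENSMUSG00000092329) and is no member, held the most peaks of all in both tables. With it left out of the totals, the shares over shared genes were 7.34%, 6.75% and 6.81% in cocaine and 6.46%, 5.94% and 7.03% in saline. They then overlapped, with a difference of 0.49 percentage points (exact permutation p = 0.3).

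**Figure D4:**
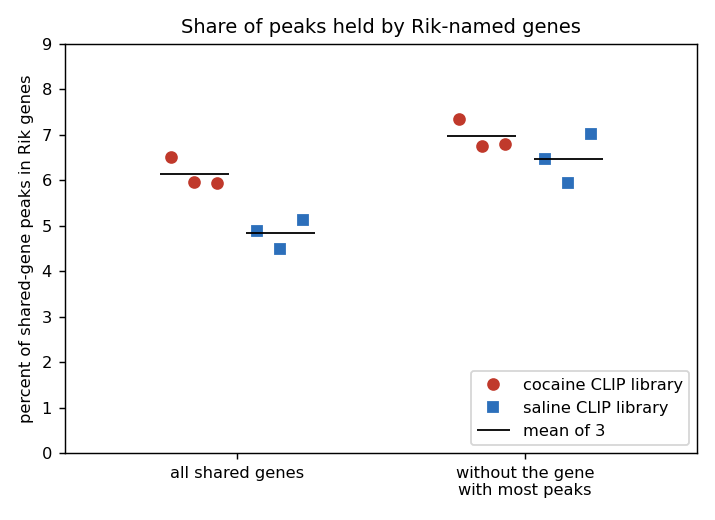
Percent of a library's peaks in genes of both tables that lie in Rik-named genes (y axis), with all shared genes in the total and without the gene with most peaks; circles are cocaine libraries, squares saline libraries, lines the mean of 3. The treatments separate on the left (5.93% to 6.52% against 4.50% to 5.13%) and overlap on the right.

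For single genes, the share of the shared genes' peaks was compared with edgeR's quasi-likelihood test, fitted on all 202 testable shared genes. The library totals in this fit were scaled by edgeR's TMM factors. Of the 17 shared members, 14 were tested, and 0 passed a Benjamini-Hochberg adjusted p of 0.05, whereas 28.2% of all tested genes passed (10.4% with a higher and 17.8% with a lower share in cocaine). At an unadjusted p under 0.05 there were 2 members, 4930419G24Rik and 1810014B01Rik, beside 35.1% of all tested genes. DESeq2's Wald test also called 0 members, beside 17.1% of the 246 shared genes with an adjusted p, and had 2 members at an unadjusted p under 0.05, beside 27.1% of all 251. The mean share of 4930419G24Rik was 0.683% after cocaine against 0.347% after saline, with a fitted log2 difference of 0.75 (SE 0.30, edgeR adjusted p = 0.0728), and each cocaine library lay above each saline library. The share of 1810014B01Rik was 0.140% and 0.234%, with a fitted log2 difference of -0.96 (SE 0.42, edgeR adjusted p = 0.102) and overlapping libraries. 9630028H03Rik had 1.56% and 1.04%, with a fitted log2 difference of 0.34 (SE 0.20, edgeR adjusted p = 0.233), again without overlap. The fitted differences include the TMM scaling, so they are not the log2 ratios of the plain mean shares beside them. Without TMM factors they were 0.96 for 4930419G24Rik, -0.75 for 1810014B01Rik and 0.56 for 9630028H03Rik.

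The rest of the tested members spread on both sides of 0, with fitted log2 differences from -0.59 for F630111L10Rik to 0.69 for 1810062O18Rik. The median was 0.12 over all 14 members, beside -0.02 over all tested genes. Of the members, 8 had a higher and 6 a lower fitted share in cocaine. The plain share, without TMM scaling, separated the treatments completely for 3 of the 17 shared members, 4930419G24Rik, 9630028H03Rik and D030047H15Rik, beside 34.7% of all 251 shared genes in either direction. All 3 were higher in cocaine. Under other scalings of the totals, 4930419G24Rik passed the threshold with DESeq2 size factors (edgeR adjusted p = 0.0416) and without TMM factors (0.0222), and 9630028H03Rik passed without TMM factors (0.0414). With the totals of all listed genes, 1810014B01Rik passed with a lower share (0.0259) and the value of 9630028H03Rik turned to -0.06. Without library 3 of saline, where it had 23 peaks, 5530401A14Rik passed with a fitted log2 difference of 1.44 (edgeR adjusted p = 0.0235), against 0.48 with all libraries.

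**Figure D5:**
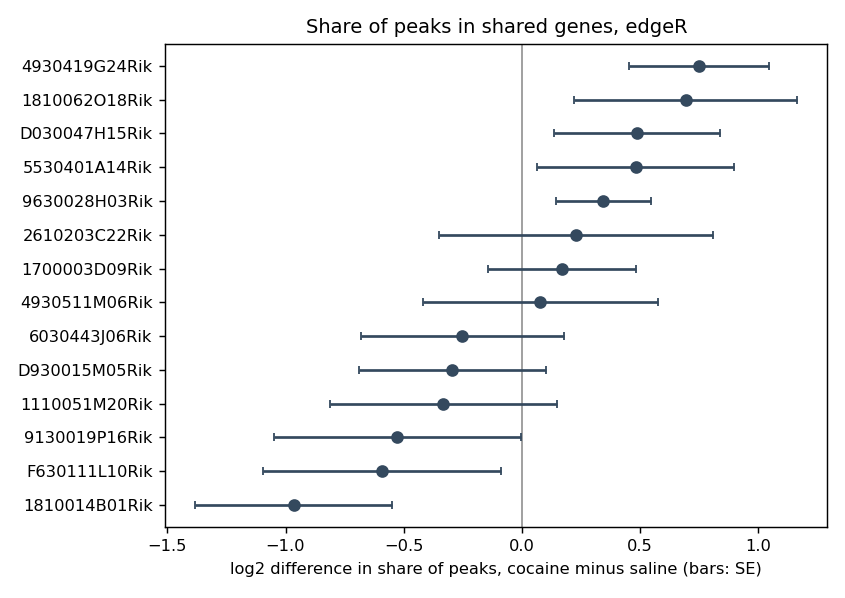
Fitted log2 difference in the share of shared-gene peaks after TMM scaling, cocaine minus saline (x axis), for the 14 Rik-named genes tested with edgeR. Points are estimates and bars their standard errors. The values are not log2 ratios of the plain shares. Estimates run from -0.96 for 1810014B01Rik to 0.75 for 4930419G24Rik, and none passed an adjusted p of 0.05.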

How the data were processed

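Per the series' design text and the labels' protocols, brain tissue was dounced in RIPA buffer and crosslinked with UVC light, YTHDF1 was precipitated, and a kit for small RNA gave the libraries. Per the submitters' processing notes, cutadapt, STAR and mm10 were used. The file names point to CLIPper. Their versions and thresholds, the use of input, and how peaks were assigned to genes are not stated in the labels or headers. The authors' deposited values are counts of peaks per gene, 3 columns per table, and their mean was used only as a check. A letter in the table name matched each table to its treatment.

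Each gene was counted once (1084 lines for 1049 genes, and 463 for 449). Spans, classes and start windows came from RefSeq tables of GRCm38.p6 through the symbols, and strands from the start windows, which 61 of 82 members have. For shared genes, edgeR 4.0.16 was used (TMM, filterByExpr, glmQLFTest, R 4.3.3) at an FDR of 0.05. DESeq2 1.42.0, pandas 2.3.3 and SciPy 1.17.1 were also used, and the test was checked on simulated data. P-values measure the spread between these libraries, which may be technical. Named genes were the leading shared members, the 10 leading members in cocaine alone, those in saline alone, those at the cutoffs and ratio extremes, and overlapping genes. Other members were named after their values were seen. Some overlapping genes are not reported here. Members and lists were chosen with earlier results of these data known.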

Additional observations from a re-analysis of the deposited data

How the results depend on the processing

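No paired analysis was possible because the columns carry no replicate number. Called Rik-named genes numbered 0 in the main edgeR test, without a filter and with DESeq2's Wald test. They numbered 1 with DESeq2 size factors, 2 without TMM factors, 1 with the totals of all listed genes, 1 with a mean above 6 peaks in both tables, and 0 to 1 when a library was left out. Of all shared genes, the main test called 57 of 202 tested, beside 0 of 14 members. Calls were 55 of 202 with DESeq2 size factors, 60 of 202 without TMM factors and 57 of 220 with the totals of all listed genes. They were 45 of 132 with a mean above 6 peaks. With a cocaine library left out, 103 to 108 genes and 6 to 8 members were tested, with 23 to 27 and 0 called. With a saline library left out, 240 to 241 genes and 17 members were tested, with 33 to 49 and 0 to 1 called. The counts thus come from sets of different size. The split of higher against lower calls was 21 to 36 in the main test, 31 to 29 without TMM factors and 20 to 22 with DESeq2's Wald test. It was 5 to 52 with the totals of all listed genes, which moved the median of all genes by -0.45 (log2). The median ratio of 4.17 became 5.39 with a mean above 6 peaks in both tables, 4.09 to 5.19 with a library left out, and 0.98 as a ratio of shares. Over all shared genes the median of 4.54 became 4.51, 4.50 to 4.70 and 1.07 in the same settings. With that cutoff 10 members stayed in the saline table and 10 in both. The exact test of percentages cannot fall below p = 0.2 with a library left out. Of the tested members' log2 differences, 12 values changed sign, none of them past the threshold. With the totals of all listed genes these were 2610203C22Rik (-0.18), 9630028H03Rik (-0.062), 1700003D09Rik (-0.24) and 4930511M06Rik (-0.33). With a library left out, the value ran from -0.83 to 0.40 for 9130019P16Rik (above 0 without library 1 of saline), from -0.76 to 0.20 for D930015M05Rik (without library 3 of saline), from -0.10 to 0.31 for 1700003D09Rik (below 0 without library 1 or 3 of cocaine, -0.030 in the former), from -0.16 to 0.99 for 4930511M06Rik (below 0 without library 2 or 3 of saline), and from -0.51 to 0.040 for 6030443J06Rik (above 0 without library 2 or 3 of saline). These ranges cover only the fits in which the gene passed the filter on low counts. When a cocaine library was left out, 4930511M06Rik and 6030443J06Rik had no fit. For 9130019P16Rik there was none without library 2 of cocaine. The cause of the sign changes was not tested. Few peaks in saline limit what can be detected.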
